A study of Mus musculus with 6 samples.

Results

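The 10 genes that make, move, release and degrade sialic acid were followed in host cells sorted from mouse tumors, with and without FGF-2 produced by the tumor cells. They were Gne, Nans, Nanp and Cmas for synthesis, Slc35a1 and Slc17a5 for transport, Neu1 and Neu3 for release, and Npl and Renbp for breakdown. All 10 were measured, out of 22180 genes represented on the arrays, each by its brightest probe set that carried 1 gene symbol. The set was drawn around Npl, which was chosen by its higher log2 level in the FGF-2 arrays of this same comparison, and the other 9 genes were added for their place in the pathway, with earlier results of these arrays known. The values of Npl are therefore given as a description with no test, and the other 9 genes are set against what was found over all genes.

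The cells were NG2+EGFP- cells, isolated by flow cytometry after collagenase digestion of T241 tumors grown under the skin of C57BL/6 mice. NG2, the product of Cspg4, is a surface proteoglycan used to mark pericytes, the mural cells of small vessels. T241 is a mouse fibrosarcoma line whose cells carried EGFP here, and the gate was set on EGFP- cells. In the vector tumor group the line carried the empty vector, and in the FGF-2 tumor group it overexpressed human FGF-2, a fibroblast growth factor. The purchased mice were female, 6 to 8 weeks of age, and the methods and labels name no other allele or agent for either group. Figure legends of the study instead describe the cells as given vehicle or FGF-2. The sample titles name the groups as control and FGF, and the methods are followed here. Each group had 3 samples with 1 array each. They are labelled as biological replicates, and nothing in the labels or methods says whether a sample pooled several animals. The source of FGF-2 was thus a tumor line that carried a transgene and not the normal tissue, and the array of mouse genes does not check the human transgene. Mouse Fgf2 had log2 levels of 4.48, 4.37 and 4.62 with vector and 4.73, 4.46 and 4.76 with FGF-2 (adjusted p = 0.603).

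Sialic acids are acidic sugars that cap the glycans of cell surface and secreted proteins and lipids, where they are read by receptors such as the Siglecs of leukocytes. Cells build them in the cytosol from UDP-GlcNAc, activate them to CMP-sialic acid in the nucleus and carry the activated sugar into the Golgi, where sialyltransferases attach it. In lysosomes, sialidases take the sugar off again and a transporter returns it to the cytosol. There it is reused or cleaved by N-acetylneuraminate pyruvate lyase, the product of Npl, and this enzyme opens the route back to amino sugar and energy metabolism.

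Values are log2 expression levels as normalized by the service laboratory. A difference of 1 on this scale is a doubling, and levels were compared between arrays for 1 gene and not between genes. Array medians lay between 4.93 and 5.01 and correlations between arrays between 0.982 and 0.994. Cspg4, which encodes the sorting marker, was at 5.50 to 5.85 for the vector tumors, compared with 6.00 to 6.13 for the FGF-2 tumors. Cd68, a macrophage marker, was at 12.37 to 12.58 and 12.27 to 12.40. The share of each cell type cannot be read from such levels. In bulk samples, fewer cells of a type and less RNA per cell cannot be told apart. Over all genes 1.03% rose and 0.284% fell at an adjusted p under 0.05. Of 15 pericyte and smooth muscle markers 6 rose and 0 fell, and their mean level was 6.28 to 6.44 in the vector arrays, against 7.01 to 7.35 in the FGF-2 arrays. Of 13 fibroblast markers 6 rose and 0 fell, with mean levels of 7.01 to 7.53 and 8.20 to 8.59. Of 16 macrophage and monocyte markers 0 rose and 2 fell, with mean levels of 10.31 to 10.75 and 10.36 to 10.51. Of 10 genes of the tissue dissociation response 0 rose and 3 fell, with mean levels of 9.27 to 9.74 and 8.85 to 8.91. The part of these shifts in the differences given for the sialic acid genes was not tested.

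Npl stood at 8.92, 7.66 and 7.41 in the vector tumors (replicates 1, 2 and 3) and at 10.30, 10.20 and 10.30 in the FGF-2 tumors. The groups did not overlap, and the lowest FGF-2 array lay 1.29 above the highest vector array. The means were 7.99 ± 0.81 (SD, n = 3) and 10.27 ± 0.053 (SD, n = 3), a difference of 2.27, or 4.83-fold. The standard error of the limma fit was 0.32. It uses 1 spread for both groups, moderated over all genes, and does not allow for the choice of Npl by this difference. Of the 22180 genes, 9 had a larger positive difference.

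The spread of Npl was uneven between the groups. The vector arrays covered 1.51, a range reached by 26 genes or 0.117%, with vector replicate 1 far above the other vector arrays. The FGF-2 arrays covered 0.0925, and 11.2% of genes had a range no larger. With vector replicate 1 left out the difference was 2.73, and with vector replicate 3 left out it was 1.98. Its direction could not change on leaving out 1 array, because the groups did not overlap.

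The 250 bases before the annotated start of Npl and of Cmas are shown because these 2 genes had the largest positive differences of the set. The sequences are those of RefSeq on the mouse assembly GRCm38.p6, given 5′ to 3′ on the strand of the gene. That of Npl is chr1:153549715-153549964 on the minus strand and that of Cmas is chr6:142756436-142756685 on the plus strand. Capitals mark 2 short motifs searched on both strands. One was CACGTG, an E-box, and the other was GCGTG, the core of the response element read by the aryl hydrocarbon receptor, and no matches overlapped.
Npl: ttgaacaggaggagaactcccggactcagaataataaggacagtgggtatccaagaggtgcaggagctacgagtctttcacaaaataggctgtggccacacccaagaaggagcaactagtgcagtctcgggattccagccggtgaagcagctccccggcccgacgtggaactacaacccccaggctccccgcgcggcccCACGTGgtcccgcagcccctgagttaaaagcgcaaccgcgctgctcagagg
Cmas: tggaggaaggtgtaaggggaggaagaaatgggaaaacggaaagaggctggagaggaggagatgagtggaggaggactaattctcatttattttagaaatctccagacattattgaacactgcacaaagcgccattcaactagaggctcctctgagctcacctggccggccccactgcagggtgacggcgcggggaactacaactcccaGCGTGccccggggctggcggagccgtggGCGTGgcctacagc
Npl held 1 CACGTG, 51 bases before the start, and no GCGTG. Cmas held GCGTG 42 and 14 bases before the start, and no CACGTG. Over all 32851 promoter windows of this length, 6.02% held CACGTG and 28.2% held GCGTG. The table had 9 windows for 8 of the genes, Gne with more than 1, and Nans and Nanp were not matched. CACGTG occurred in 1 of these 9 windows and GCGTG in 4, those of Cmas, Neu1, Neu3 and Slc17a5. A match is a run of letters and not evidence of binding.

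Renbp, the second breakdown gene, encodes N-acetylglucosamine 2-epimerase, also known as renin-binding protein, which links N-acetylmannosamine to N-acetylglucosamine. Its levels were 8.21, 8.11 and 7.66 with vector and 8.37, 8.36 and 8.35 with FGF-2. The FGF-2 arrays all lay above the vector arrays and nearly coincided, whereas vector replicate 3 was the lowest. The difference was 0.37 (standard error 0.15, 95% interval 0.03 to 0.70) and did not pass the test over all genes (adjusted p = 0.301). Without vector replicate 3 it was 0.20.

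**Figure D1:**
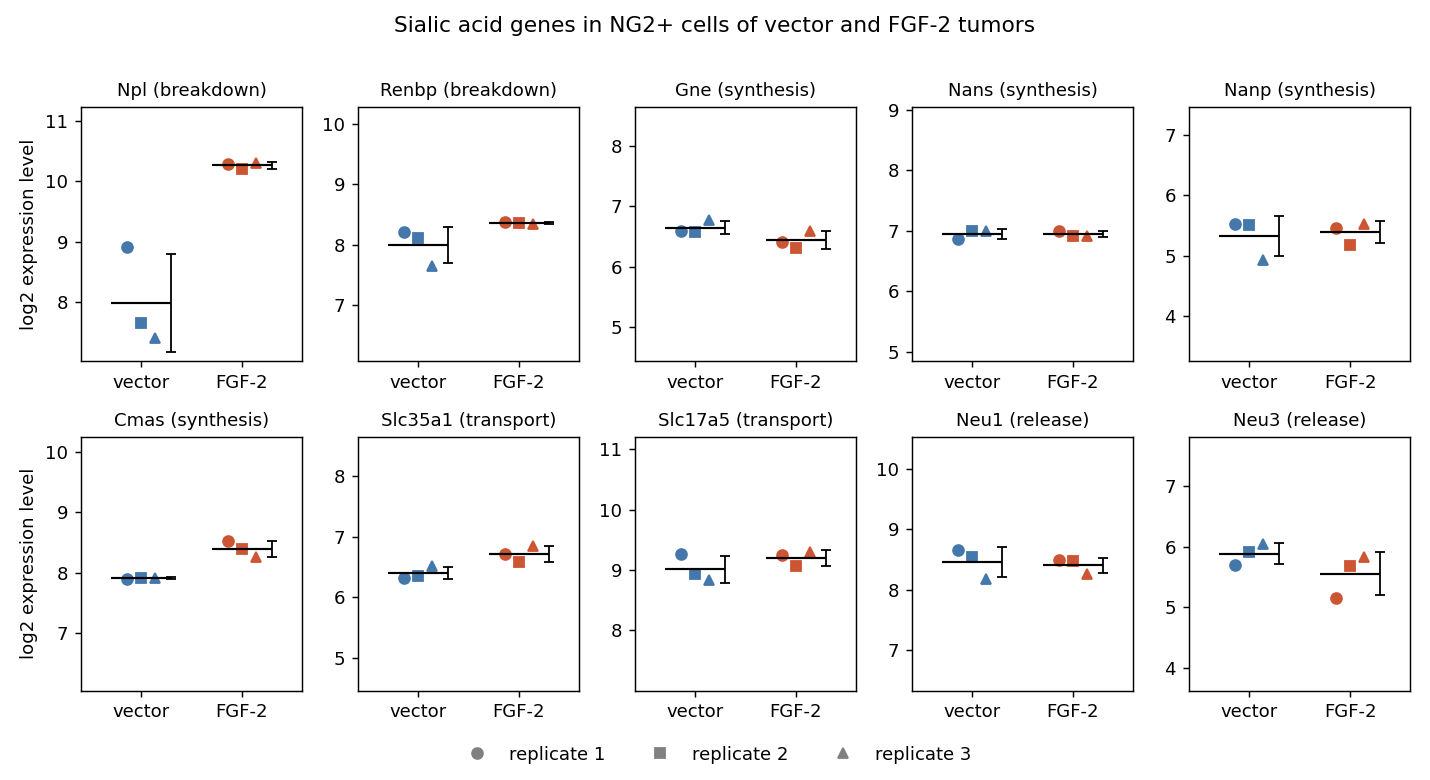
Log2 expression level (y axis) of each sialic acid gene in the 3 vector tumor and 3 FGF-2 tumor arrays (x axis), 1 panel per gene; marker shapes give the replicate number, horizontal lines the group mean and vertical bars the SD. All panels span the same height. Npl, with means of 7.99 and 10.27, was chosen by its higher level in the FGF-2 arrays, and the other genes for their place in the pathway.

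The 4 synthesis genes did not share a direction, and none passed the test. Gne encodes the bifunctional epimerase and kinase that starts the pathway and limits its rate. It had levels of 6.59, 6.57 and 6.77 for the vector tumors, compared with 6.41, 6.30 and 6.59 for the FGF-2 tumors. The mean was lower by 0.21 in FGF-2 tumors (-0.21, 95% interval -0.48 to 0.06, adjusted p = 0.464), and the groups overlapped.

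Nans encodes the synthase that joins N-acetylmannosamine 6-phosphate to phosphoenolpyruvate. Its levels were 6.86, 7.00 and 7.00 in the vector arrays, against 6.99, 6.90 and 6.91 in the FGF-2 arrays, with a difference of -0.013 (95% interval -0.25 to 0.22, adjusted p = 0.971). A second, dimmer probe set gave -0.12, and the 2 probe sets correlated at 0.14 over the 6 arrays. Nanp encodes the phosphatase that yields free sialic acid. It had levels of 5.53, 5.51 and 4.94 with vector and 5.46, 5.18 and 5.53 with FGF-2. The difference was 0.063 (95% interval -0.33 to 0.46, adjusted p = 0.910), and the second probe set of Nanp gave 0.17. For Nans and Nanp the groups overlapped. The difference of Nanp was -0.13 without vector replicate 3 and 0.17 without FGF-2 replicate 2, and that of Nans ran from -0.060 to 0.010 with each array left out.

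Cmas, which encodes the synthetase that activates sialic acid to CMP-sialic acid, was the member closest to the threshold among the other 9. Its levels were 7.90, 7.92 and 7.92 for the vector tumors, compared with 8.53, 8.39 and 8.26 for the FGF-2 tumors. The vector arrays lay within a few hundredths of each other and all FGF-2 arrays stood above them, the nearest by 0.34. The means were 7.91 ± 0.012 and 8.39 ± 0.13 (SD, n = 3), a difference of 0.48 (standard error 0.11, 95% interval 0.24 to 0.73) or 1.40-fold. The adjusted p was 0.0767, so that Cmas was not called. With array quality weights it was 0.0441, and over the 15 alternatives it ran from 0.0441 to 0.280.

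Transport was represented by 2 carriers that work at different membranes. Slc35a1 brings CMP-sialic acid into the Golgi. It had levels of 6.32, 6.36 and 6.51 in the vector arrays, against 6.71, 6.58 and 6.85 in the FGF-2 arrays, with no overlap between the groups. Its difference was 0.32 (standard error 0.12, 95% interval 0.06 to 0.58), and it did not pass the test (adjusted p = 0.252). Slc17a5 encodes sialin, which exports free sialic acid from lysosomes. It had levels of 9.26, 8.94 and 8.83 with vector and 9.24, 9.06 and 9.30 with FGF-2. The groups overlapped, since vector replicate 1 lay within the range of the FGF-2 arrays, and the difference was 0.19 (95% interval -0.12 to 0.50, adjusted p = 0.567). Without vector replicate 1 it was 0.32, and without vector replicate 3 it was 0.10.

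The 2 sialidases had lower means in FGF-2 tumors and did not pass the test. Neu1, the lysosomal sialidase, had levels of 8.66, 8.55 and 8.19 for the vector tumors, compared with 8.49, 8.47 and 8.26 for the FGF-2 tumors. Its difference was -0.056 (95% interval -0.38 to 0.26, adjusted p = 0.898), with the vector arrays spread on both sides of the FGF-2 arrays. Without vector replicate 3 it was -0.19 and without vector replicate 1 it was 0.041. Neu3, the sialidase of the plasma membrane that acts on gangliosides, had levels of 5.70, 5.91 and 6.04 in the vector arrays, against 5.15, 5.69 and 5.82 in the FGF-2 arrays. Its difference was -0.33 (95% interval -0.73 to 0.07, adjusted p = 0.436), and the groups overlapped. FGF-2 replicate 1 was the lowest array, and without it the difference was -0.13.

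**Figure D2:**
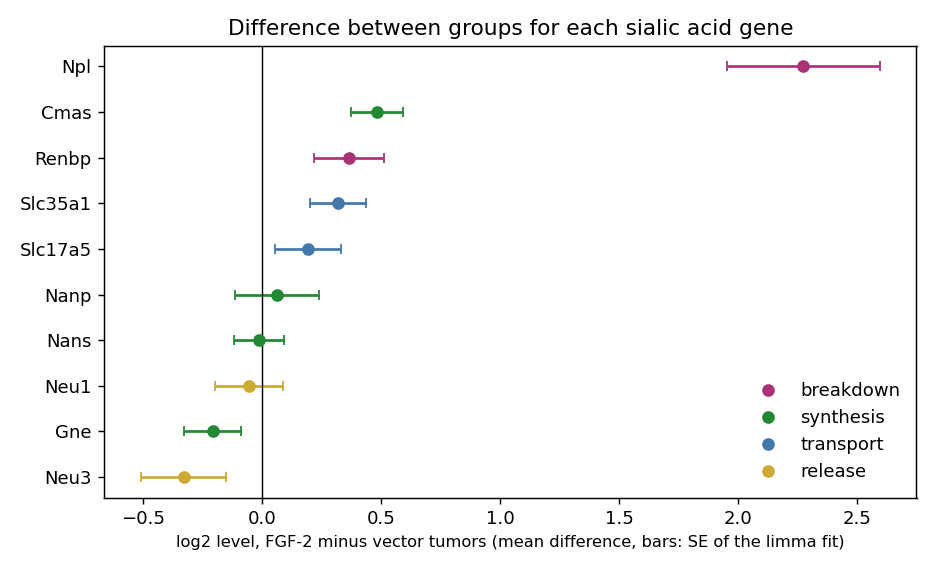
Difference in log2 level between FGF-2 and vector tumors (x axis) for each sialic acid gene (y axis), sorted by size and colored by role; points are differences of 3 against 3 arrays and bars the standard error of the limma fit. Npl lies at 2.27 and the other genes between -0.33 and 0.48.

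Over all genes, 291 of 22180 passed the test (1.31%), 228 higher (1.03%) and 63 lower (0.284%) in FGF-2 tumors. Npl was not tested, and of the other 9 sialic acid genes 0 passed by limma. At an unadjusted p under 0.05 there were 3 of these 9 by limma (Cmas, Slc35a1 and Renbp) and 2 by the methods' t-test, against 14.6% and 12.9% of all genes, and 0 passed by the methods' t-test after adjustment, against 0.00902% of all genes. The same 3 genes were those of the 9 whose FGF-2 arrays all lay above the vector arrays, against 11.3% of all genes, and 0 of the 9 had FGF-2 arrays that all lay below, against 9.93%. Over both directions 21.2% of all genes had groups that did not overlap. The mean was higher in FGF-2 tumors for 5 of the 9 genes, against 45.8% of all genes. Their median difference was 0.063, beside -0.018 over all genes. These shares rest on 9 genes chosen with results known and are a description.

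The vector arrays differed among themselves in several of these genes. Vector replicate 3 was the lowest of the 6 arrays for 4 of the 9 genes other than Npl, against 20.7% of all genes, and for Npl as well. Vector replicate 1 was the highest vector array for 4 of the 9, against 32.3% of all genes, and for Npl as well.

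Genes next to the pathway were read from 5 lists. The 20 sialyltransferases, which attach sialic acid in the Golgi, held 0 genes that rose and 0 that fell by limma, with 3 at an unadjusted p under 0.05 by limma and 2 by the methods' t-test, beside 14.6% and 12.9% of all genes. Their means were higher in FGF-2 tumors for 10 and lower for 10, and the median difference was -0.00060. St8sia4, a polysialyltransferase, had the largest difference, with levels of 8.23, 6.79 and 6.59 with vector and 8.12, 8.25 and 7.81 with FGF-2. Vector replicate 1 stood with the FGF-2 arrays, and the difference of 0.85 did not pass (adjusted p = 0.319). Without that array it was 1.37 with an adjusted p of 0.0118, and without vector replicate 3 it was 0.55. St3gal6 had levels of 7.14, 7.06 and 7.25 for the vector tumors, compared with 6.68, 6.73 and 6.80 for the FGF-2 tumors, with no overlap, and did not pass either (-0.41, adjusted p = 0.112).

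Of 6 genes that modify sialic acid or encode other sialidases 0 passed by limma, with 1 at an unadjusted p under 0.05 by limma and 0 by the methods' t-test, beside 14.6% and 12.9% of all genes. Neu4, another sialidase, had levels of 5.53, 5.36 and 5.54 in the vector arrays, against 4.81, 4.80 and 5.32 in the FGF-2 arrays (-0.50, adjusted p = 0.174). Casd1, which O-acetylates sialic acid, differed by 0.21 (adjusted p = 0.492) with overlapping groups, and by 0.11 without vector replicate 3.

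The list of UDP-GlcNAc supply and amino sugar handling held 9 genes. Of these 1 passed as higher (Gnpnat1), 0 as lower, and 8 failed the test, beside 1.03% and 0.284% of all genes passing as higher and lower. Means were higher in FGF-2 tumors for 8 of the 9, beside 45.8% of all genes, and the median difference was 0.27. Gnpnat1, which acetylates glucosamine 6-phosphate on the way to UDP-GlcNAc, rose, its vector arrays being at 7.49, 7.28 and 7.14 and its FGF-2 arrays at 8.30, 7.89 and 8.06. The difference was 0.78 (standard error 0.14), or 1.72-fold, with no overlap and an adjusted p of 0.0337. The call held without vector replicate 1. It was lost without each of the other arrays, with adjusted p values of 0.103 (vector replicate 2), 0.0546 (vector replicate 3), 0.152 (FGF-2 replicate 1), 0.0569 (FGF-2 replicate 2) and 0.0976 (FGF-2 replicate 3). Gfpt2, a glutamine:fructose-6-phosphate amidotransferase at the entry of the route, had levels of 4.30, 4.34 and 4.14 with vector and 5.27, 4.83 and 4.65 with FGF-2 (0.66, adjusted p = 0.0920). Vector replicate 3 was the lowest of the 6 arrays for 8 of these 9 genes, beside 20.7% of all genes. The mean level of the list was 6.78 to 7.19 for the vector tumors, compared with 7.25 to 7.44 for the FGF-2 tumors.

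Of 16 genes listed for lysosomal glycan breakdown 11 were measured, and the others were not analysed here. By limma 0 of the 11 passed, with 1 at an unadjusted p under 0.05 and 0 by the methods' t-test, beside 14.6% and 12.9% of all genes. The median difference was 0.027. Galc, the lysosomal galactosylceramidase, had levels of 7.90, 7.80 and 7.13 in the vector arrays, against 8.19, 8.16 and 8.05 in the FGF-2 arrays (0.52, adjusted p = 0.241), and without vector replicate 3 the difference was 0.28. Gla, the lysosomal alpha-galactosidase, differed by 0.28 (adjusted p = 0.348), or 0.17 without vector replicate 3. Vector replicate 3 was the lowest of the 6 arrays for all 11, with a mean level of 9.27 beside 9.71 and 9.75 in the other vector arrays and 9.62 to 9.67 in FGF-2 tumors. The same array was the lowest for Npl, Renbp, Nanp, Neu1 and Slc17a5, and its part in their differences was not tested beyond leaving it out.

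Of 12 sialic acid receptors listed 11 were measured, and the other was not analysed here. In this list 0 rose, 1 fell and 10 did not pass, beside 1.03% and 0.284% of all genes that rose and fell. Means were higher in FGF-2 tumors for 4 and lower for 7, beside 45.8% of all genes higher, and the median difference was -0.064. Siglece, an inhibitory Siglec of myeloid cells, fell, its vector arrays being at 7.85, 8.19 and 7.00 and its FGF-2 arrays at 6.47, 6.38 and 6.05. The difference was -1.38 (standard error 0.27), vector tumors being 2.60-fold higher, with no overlap and an adjusted p of 0.0427. The call held without vector replicate 3. It was lost without each of the other arrays, with adjusted p values of 0.128 (vector replicate 1), 0.101 (vector replicate 2), 0.141 (FGF-2 replicate 1), 0.135 (FGF-2 replicate 2) and 0.145 (FGF-2 replicate 3). Siglec1, the sialoadhesin of macrophages, had levels of 10.38, 10.33 and 9.73 with vector and 9.89, 9.76 and 9.04 with FGF-2 (-0.58, adjusted p = 0.307), and without FGF-2 replicate 3 the difference was -0.32. The groups overlapped for Siglec1, in contrast to Siglece.

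**Figure D3:**
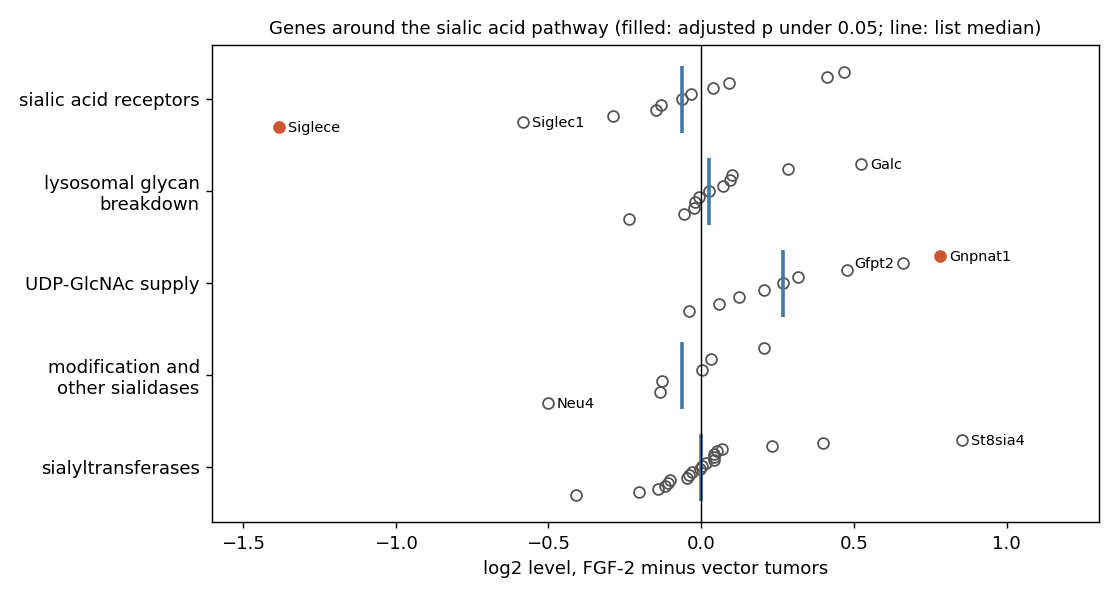
Difference in log2 level between FGF-2 and vector tumors (x axis) for every measured gene of the 5 pathway lists (y axis), each circle being 1 gene; filled circles passed at an adjusted p under 0.05 and vertical lines mark the list median. Gnpnat1 at 0.78 and Siglece at -1.38 are the filled circles, and the median of the UDP-GlcNAc list lies at 0.27.

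The genes whose levels followed Npl most closely over the 6 arrays were sought among 356 named genes with an SD of at least 0.5. The 8 with the highest Pearson r were Il1rl2 (0.983), Chil3 (0.983), Mmp27 (0.979), Rgs7bp (0.979), Ahr (0.977), Ccr3 (0.975), Cnrip1 (0.975) and Gask1b (0.973). These coefficients describe 6 points that fall into 2 groups, so that a gene that differs between the groups tends to score high. A gap between the groups and a high vector replicate 1 follow from choosing genes by their likeness to Npl, and nothing is read from them.

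Chil3, a chitinase-like lectin secreted by macrophages, had levels of 5.99, 5.15 and 4.83 for the vector tumors, compared with 7.80, 8.13 and 7.62 for the FGF-2 tumors, a difference of 2.53. Il1rl2, the receptor of IL-36, had levels of 5.45, 4.84 and 4.86 in the vector arrays, against 6.40, 6.65 and 6.43 in the FGF-2 arrays, a difference of 1.44. Ahr, the aryl hydrocarbon receptor, had levels of 7.92, 7.44 and 7.16 with vector and 8.46, 8.48 and 8.22 with FGF-2, a difference of 0.88. Among these 3, Chil3 had the widest gap between the groups. Ccr3, a chemokine receptor of eosinophils, differed by 1.42. The eosinophil granule genes Prg2 and Epx were at 3.44 to 3.71 and 3.97 to 4.47 over the 6 arrays, with differences of -0.088 and -0.26. Of the 8 markers of eosinophils, basophils and mast cells, Ccr3 among them, 5 had higher means in FGF-2 tumors and 3 lower. Over all genes 45.8% had higher means. Mmp27, a matrix metalloproteinase, differed by 1.27, Rgs7bp, which binds R7 regulators of G-protein signaling, by 1.12, Gask1b by 1.37 and Cnrip1, which binds the cannabinoid receptor CB1, by 0.94. Among the sialic acid genes, r with Npl was highest for Cmas (0.87) and Renbp (0.87) and lowest for Gne (-0.72).

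Both the pericyte list and the list of resident and perivascular macrophages held genes with a high r with Npl. For the fibroblast list, of which 6 of 13 genes rose, r is not reported here. A high r is therefore not shown to be limited to the lists named. Of 12 markers of resident and perivascular macrophages 0 passed the test in either direction by limma, with 3 at an unadjusted p under 0.05 by limma and 1 by the methods' t-test, beside 14.6% and 12.9% of all genes. The FGF-2 mean was the higher for 11 of them, beside 45.8% of all genes, with a median difference of 0.38. The mean level of the list was 8.89, 8.36 and 8.39 for the vector tumors, compared with 8.94, 8.97 and 8.77 for the FGF-2 tumors, and vector replicate 1 was the highest vector array for 10 of the 12, beside 32.3% of all genes. F13a1, a transglutaminase subunit made by tissue macrophages, had levels of 10.51, 9.33 and 9.48 in the vector arrays, against 10.43, 10.54 and 10.23 in the FGF-2 arrays. Mrc1, the mannose receptor CD206, had levels of 12.08, 12.02 and 11.85 with vector and 12.47, 12.40 and 12.43 with FGF-2, with an r of 0.97 with Npl. For F13a1 vector replicate 1 stood among the FGF-2 arrays, which it did not for Npl. Timd4 and Vsig4, which mark some resident macrophages, were at 3.70 to 4.26 and 3.14 to 3.88 over the 6 arrays, with r of -0.68 and 0.39. Among the pericyte and smooth muscle markers r with Npl was 0.94 for Kcnj8, 0.93 for Higd1b and 0.87 for Rgs5, and 0.023 for Cnn1. By r with Npl, Rgs5 ranked 81 and F13a1 89 among the 356 named genes with an SD of at least 0.5. Mrc1 (0.97), Kcnj8 (0.94), Higd1b (0.93) and Pf4 (0.89) had a higher r but a smaller SD, and were not ranked. Among the 16 macrophage and monocyte markers r ran from -0.83 for Cx3cr1 to 0.62 for Mertk, with -0.53 for Cd68 and 0.50 for Csf1r. A high r was therefore found for several markers of the pericyte list and of the resident and perivascular macrophage list. Of the 15 pericyte markers 13 had FGF-2 arrays that all lay above the vector arrays, against 11.3% of all genes. Of the 12 resident and perivascular macrophage markers 1 did. A gene that differs between the groups tends to score high, so nothing is read from these coefficients. The part of pericytes, macrophages or other cells in the levels of Npl was not tested.

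**Figure D4:**
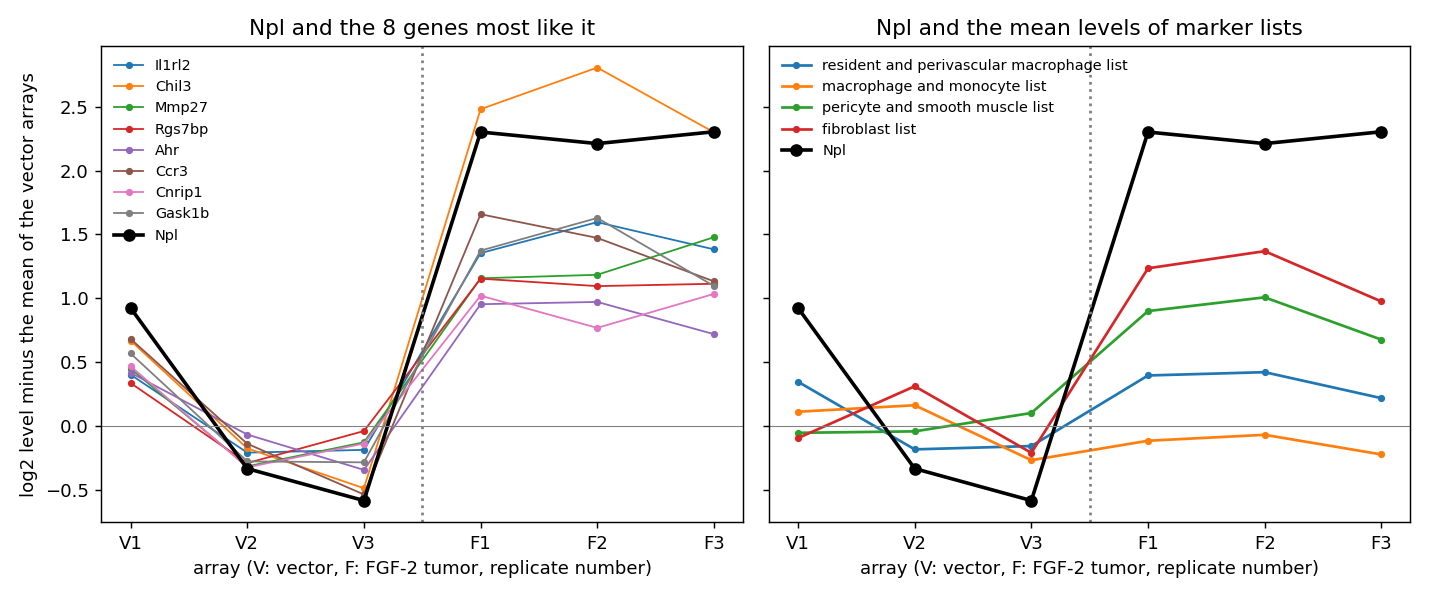
Log2 level minus the mean of the vector arrays (y axis) in each array (x axis; V, vector tumors; F, FGF-2 tumors; numbers are replicates) for Npl in black and, at left, the 8 genes most like it and, at right, the mean level of 4 marker lists; lines join the values of 1 gene or list and imply no order of arrays. Npl spans 7.41 to 8.92 in the vector arrays; the 8 genes were chosen for their likeness to it. The pericyte and fibroblast lists are higher in all FGF-2 arrays than in any vector array, and the other lists overlap between the groups.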

How the data were processed

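Gene expression was measured with Affymetrix mouse gene arrays in 3 samples of NG2+EGFP- cells from vector tumors and 3 from FGF-2 tumors. The log2 levels were deposited by the authors after hybridization and normalization by a service laboratory, with Affymetrix Expression Console named as software; its version and summarization method are not given in the sources used here. They were not normalized again. Sequencing depth does not apply, and the 3 arrays per group limit the precision.

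Gene symbols were unique for 23521 of 33793 probe sets, multiple for 1820 and missing for 8452, and only the first kind was used. Where a gene had several probe sets (1082 genes), the brightest over 6 arrays stood for it, which gave 22180 genes, of which 21994 were found by identifier in the RefSeq table of GRCm38.p6. From RefSeq only gene names and the promoter windows with their own coordinates were taken, since the assembly behind the array annotation is not given in the sources used here.

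Groups were compared in R 4.3.3 with limma 3.58.1 (lmFit and eBayes), with two-sided p values and Benjamini-Hochberg adjustment across the 22180 genes. A gene rose or fell at an adjusted p under 0.05. Intervals are 95% intervals from this fit and are not adjusted. The fit was tested on simulated data. An exact permutation test of 3 against 3 arrays cannot go below 0.1 and was not used. The labels and methods call the samples biological and do not say whether each came from a separate animal, so p values measure the spread between these samples.

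The sialic acid genes, the pathway and marker lists and the tests were chosen with earlier results of these data known. Genes named are the 10 sialic acid genes, the called genes of each pathway list (up to 4) or, with fewer than 2 called, the 2 largest absolute differences, the 8 genes with the highest Pearson r with Npl (SD of at least 0.5, no predicted or small RNA genes), and the markers that define the sorted cells or on which a list summary turns. Replicate numbers do not pair the samples by the labels or methods, and no block was used. The alternatives were a replicate block, a further quantile normalization, arrays centred on their median, genes above the median mean level (11090 genes) or with a mean of at least 5 (12755 genes), averaged probe sets, array quality weights, a robust prior with a trend, the methods' t-test and each array left out.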

Additional observations from a re-analysis of the deposited data

How the results depend on the processing

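Over the 15 alternatives, the 19 tested genes named in the set and its pathway lists gave 281 values, of which 255 kept their direction and their side of the threshold. The count over all genes, 291, was 494 with a replicate block, 554 with array quality weights and 2 by the methods' t-test, and ran from 75 to 439 with each array left out. It comprised 238 higher and 57 lower genes with centred arrays, and 220 and 80 after a further quantile normalization. For the 9 sialic acid genes other than Npl the count of 0 became 1 with array quality weights (Cmas) and was 0 with each array left out. The 2 calls in the pathway lists became 4 with the replicate block (Gfpt2, Gnpnat1, Siglec1 and Siglece), 0 by the methods' t-test, and ran from 0 to 2 with each array left out. The block changed no call of a sialic acid gene. Deviations from the group means correlated at -0.017, 0.19 and 0.26 between arrays with the numbers 1, 2 and 3, and 4 of 6 arrays correlated best with their own number in the other group. Differences close to 0 changed sign. That of Nans was 0.00068 with centred arrays, 0.00865 with array quality weights and -0.060 to 0.010 with each array left out. That of Nanp was -0.00865 with array quality weights and -0.13 to 0.17 with each array left out. That of Neu1 ran from -0.19 to 0.041 with each array left out. The cause of these changes was not tested.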
